A study of Mus musculus with 6 samples.

Results

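Potassium channel genes were taken as the genes of the deposited table whose symbol is Kcn followed by lower-case letters and a number, which found 86 of 22274 genes. The family was picked because 2 of its genes, Kcnh1 and Kcnb2, were higher in the knockout testes, so the values of these 2 are given as a description, without a test. The data are messenger RNA libraries of whole mouse testes at day 9, namely 3 of the conditional Dcaf2 knockout (cKO) and 3 controls. In the cKO mice a floxed Dcaf2 gene was cut out by Stra8-Cre, a recombinase driven by a promoter of differentiating spermatogonia, so the somatic cells of the testis are not meant to lose the gene. The labels call the other mice only "control" and do not give their alleles. DCAF2 is the substrate receptor of a CRL4 ubiquitin ligase, and the study asked whether it is needed for spermatogenesis.

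Potassium channels let potassium ions leave or enter the cell along their gradient and so set the membrane potential. Most are built of 4 pore-forming subunits that may be alike or different, and some carry auxiliary subunits that change their gating or their transport to the surface. The letters after Kcn name the subfamily: most of the single letters from a to v are voltage-gated, n, t, ma and u are opened by calcium, by sodium or by voltage and pH, j are inward rectifiers, k are leak channels with a doubled pore domain, and ab, e, ip and mb are auxiliary subunits. In the testis such channels are best known from sperm, whose main potassium channel contains the product of Kcnu1, and from the hormone-producing somatic cells.

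Each library held 15407007 to 18372964 counts, and 71 to 73 of the 86 genes had a count above 0 in the cKO libraries, against 74 to 77 in the control libraries. Over all 22274 genes of the table these numbers were 16700 to 16743 in cKO and 16992 to 17041 in control libraries. All 18 pan-germ-cell markers were lower in the cKO testes (edgeR, adjusted p under 0.05), with summed levels of 659 to 854 CPM (counts scaled to the library size) in cKO and 1806 to 2363 CPM in control testes. All 14 tested markers of differentiating spermatogonia and meiosis were lower as well, with sums of 200 to 247 CPM in cKO and 632 to 928 CPM in control testes. The 14 markers of undifferentiated spermatogonia were mixed: 2 rose (Etv5 and Lhx1), 5 fell and 7 did not pass, with sums of 215 to 247 CPM in cKO and 252 to 337 CPM in control testes. Of 16 Sertoli cell markers 8 rose, with sums of 6755 to 7549 CPM in cKO and 4787 to 6459 CPM in control testes. Of 9 tested Leydig cell markers 3 rose, with sums of 1341 to 1380 CPM in cKO and 1203, 688 and 678 CPM in control libraries 1, 2 and 3. Of 9 stroma markers 5 rose, of 8 endothelial markers 4, of 9 macrophage markers 2 and of 9 myoid markers 1, and of 6 tested neural and Schwann cell markers 1 rose and 1 fell. Beside these counts, 11.1% of all tested genes were higher and 13.9% lower, and the myoid and neural counts lie near these shares. None of the markers of these lists was at 0 in all libraries. In whole testes fewer cells of a type and less RNA per cell cannot be told apart, and the part of such shifts in the values below was not tested. Dtl, the current symbol of Dcaf2, was at 41.7, 43.8 and 51.5 CPM in cKO and 42.6, 50.3 and 77.4 CPM in control libraries, so that the groups overlapped and the transcript level does not separate the genotypes.

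Of the 86 genes, 54 had enough counts to be tested. Of these, 13 were higher and 5 lower in the cKO testes at an adjusted p under 0.05 (edgeR quasi-likelihood test, adjusted over all 14424 tested genes), which is 24.1% and 9.26%. Over all tested genes 11.1% were higher and 13.9% lower, and 25.0% changed in either direction, beside 33.3% of the 54 Kcn genes. Without Kcnh1 and Kcnb2 the counts were 11 higher and 5 lower of 52, or 21.2% and 9.62%. The median log2 fold change (cKO over control) was 0.32 over the 54 genes, 0.28 without Kcnh1 and Kcnb2 and 0.03 over all tested genes. Since the family was picked from this contrast, these counts and medians describe it and support nothing further.

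The number of higher Kcn genes changed when single libraries were left out. It was 3, 5 and 5 without cKO library 1, 2 or 3, 14 and 9 without control library 1 or 2 and 7 without control library 3. Each of these counts includes Kcnh1 and Kcnb2, which chose the family and are only described here. The number of lower genes was 3, 4 and 3 without cKO library 1, 2 or 3, 5 without control library 1, and 4 without control library 2 or 3. The calls over all tested genes, in either direction, moved as well, from 3607 with all 6 libraries. They were 1444, 1355 and 1933 without cKO library 1, 2 or 3. Without control library 1, 2 or 3 they were 5255, 4277 and 1795. The changes in the Kcn counts are thus not particular to the family. Of the 16 genes that passed besides Kcnh1 and Kcnb2, 3 passed in every alternative run, Kcns1, Kcnn1 and Kcnab2, and all 3 were lower in cKO.

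**Figure D1:**
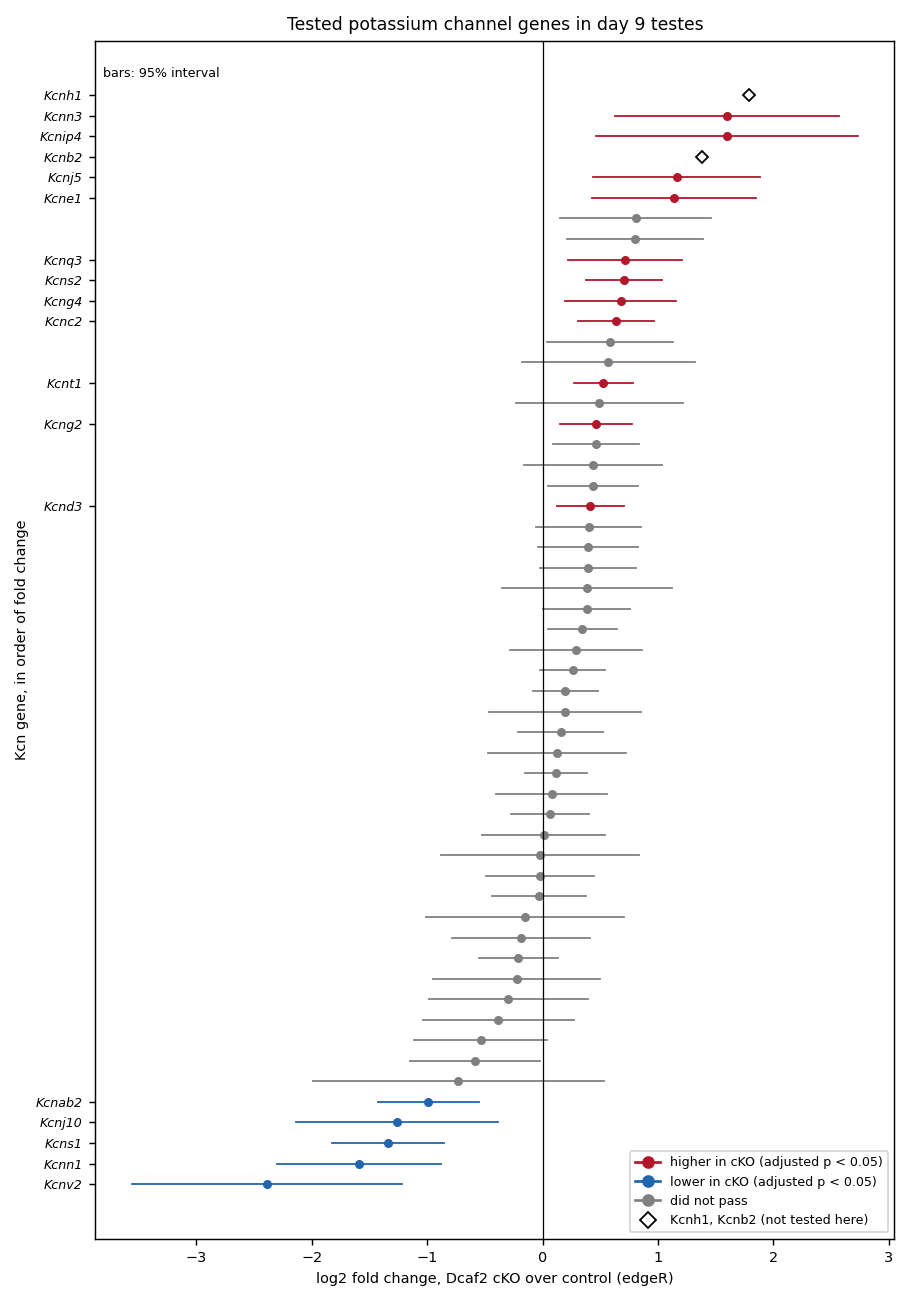
Log2 fold changes (cKO over control, x axis) of the 54 tested Kcn genes, from highest to lowest down the page, with 95% intervals from edgeR. Red genes were higher and blue genes lower at an adjusted p under 0.05, grey genes did not pass and carry no name, and open diamonds mark Kcnh1 and Kcnb2, which chose the family and are drawn without an interval. The values ran from -2.39 for Kcnv2 to 1.79 for Kcnh1.

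The promoters of the gene that rose furthest, Kcnh1, and of Kcns1, the lower gene with the smallest adjusted p of the family, are shown as a gene that rose beside one that fell. The windows are those of RefSeq (build GRCm38.p6), from 250 bases before to 50 bases after the start, read on the gene's strand, with GC boxes (GGGCGG or its reverse complement CCGCCC) in capitals. That of Kcnh1 lies at chr1:192190527-192190826 on the plus strand and that of Kcns1 at chr2:164171064-164171363 on the minus strand.
Kcnh1: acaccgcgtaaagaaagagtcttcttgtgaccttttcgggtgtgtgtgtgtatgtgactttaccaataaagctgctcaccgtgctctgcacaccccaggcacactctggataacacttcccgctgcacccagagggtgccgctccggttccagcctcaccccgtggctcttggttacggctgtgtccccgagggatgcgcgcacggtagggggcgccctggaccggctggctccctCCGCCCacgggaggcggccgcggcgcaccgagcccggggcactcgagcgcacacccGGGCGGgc
Kcns1: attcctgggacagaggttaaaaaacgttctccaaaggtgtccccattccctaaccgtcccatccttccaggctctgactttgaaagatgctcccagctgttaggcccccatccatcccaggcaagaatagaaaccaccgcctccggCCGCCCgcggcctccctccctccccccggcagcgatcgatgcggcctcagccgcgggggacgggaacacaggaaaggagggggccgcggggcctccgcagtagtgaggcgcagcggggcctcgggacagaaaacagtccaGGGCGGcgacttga
Each window held 1 GGGCGG and 1 CCGCCC, and they held 27 CpG in Kcnh1 and 22 CpG in Kcns1. Windows were found for 63 of the 86 genes, 86 windows in all, of which 47.7% held a GC box on either strand, against 35.7% of all 32851 windows of the table. The median number of CpG was 9 in the windows of Kcn genes and 7 in all windows. An E-box (CACGTG) was in 4.65% of the windows of Kcn genes and 7.15% of all windows. Such matches are letters in a window and were not linked to the expression values.

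Kcnh1 (ENSMUSG00000058248) encodes a voltage-gated channel of the ether-à-go-go type. It was at 7.15, 4.46 and 9.50 CPM in cKO libraries 1, 2 and 3 and at 2.00, 1.23 and 2.88 CPM in control libraries 1, 2 and 3. Every cKO library lay above every control library, and the log2 fold change was 1.79 (SE 0.361), or 3.45-fold. Kcnb2 (ENSMUSG00000092083), which encodes a delayed rectifier, was at 6.24, 4.40 and 6.44 CPM in cKO and 1.64, 2.34 and 2.58 CPM in control libraries, again without overlap, and its log2 fold change was 1.38 (SE 0.258). Both remained weakly expressed in absolute terms: per transcript length Kcnh1 averaged 0.960 FPKM in cKO and 0.317 FPKM in control testes, and Kcnb2 0.647 FPKM in cKO and 0.227 FPKM in control testes. Over the alternatives the log2 fold change ran from 1.51 to 2.11 for Kcnh1 and from 1.18 to 1.54 for Kcnb2.

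Of the 8 Kcnh genes, whose members encode the ether-à-go-go, ERG and ELK channels, 4 were tested, and 0 besides Kcnh1 passed with edgeR, DESeq2 or limma-voom, with 1, Kcnh7, at an unadjusted edgeR p under 0.05. Among all tested genes 25.0% passed with edgeR, so so few genes do not set the subfamily apart. Kcnh2, the ERG channel gene known for the repolarization of the heart, had the highest level of all 86 genes per transcript length, with 23.3 ± 2.00 FPKM in cKO and 21.2 ± 3.57 FPKM in control testes (mean ± SD, n = 3 each). It was at 101, 104 and 88.7 CPM in cKO and 91.0, 85.5 and 68.6 CPM in control libraries. The groups overlapped, and its log2 fold change of 0.26 (95% interval -0.02 to 0.54) did not pass (edgeR adjusted p = 0.151); without control library 1 it was 0.32 and passed (adjusted p = 0.0403). Kcnh7 was at 0.38 (edgeR adjusted p = 0.127) and Kcnh3 at -0.30 (adjusted p = 0.506). Kcnh5 had no count in any library, which allows up to 3 counts per library, and Kcnh6 was not tested, with 3, 0 and 1 counts in cKO and 5, 15 and 8 counts in control libraries.

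The products of Kcnf, Kcng, Kcns and Kcnv genes form no channel alone, are called electrically silent, and join the products of Kcnb genes in mixed channels. Of these 10 silent-subunit genes 8 were tested, and 3 rose, 2 fell and 3 did not pass, with a median log2 fold change of -0.28. The 19 other tested voltage-gated genes had 5 higher, 0 lower and 14 that did not pass, with a median of 0.39. Kcnh1 and Kcnb2, which chose the family, are among these 5 higher genes and count in this median. In this set 0 genes were lower with an unadjusted edgeR p under 0.05 or with DESeq2 or limma-voom. Over all tested genes 11.1% were higher and 13.9% lower. Kcnv2, among the silent-subunit genes that fell, was tested through its control counts alone. The difference between these 2 sets was not tested.

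Among the silent subunits, Kcns1 (ENSMUSG00000040164) fell, with 2.86, 2.41 and 3.72 CPM in cKO and 7.12, 7.08 and 8.53 CPM in control libraries. No cKO library reached a control library, and the log2 fold change was -1.34 (SE 0.215, edgeR adjusted p = 0.00374), between -1.52 and -1.20 over the alternatives. Kcns2 (ENSMUSG00000050963), a gene of the same subfamily, rose, with 12.7, 12.2 and 11.4 CPM in cKO and 7.02, 6.91 and 8.29 CPM in control libraries, a difference of 0.71 ± 0.146 on the log2 scale (SE; adjusted p = 0.00974 with edgeR). The third member, Kcns3, was at 5.12 ± 0.352 CPM in cKO and 5.23 ± 0.574 CPM in control testes (edgeR adjusted p = 0.915). The 3 Kcns genes thus took 3 courses. Kcnv2 (ENSMUSG00000047298), known from the photoreceptors of the retina, fell furthest of the family, with 4, 6 and 3 counts in cKO and 16, 42 and 20 counts in control libraries, a difference of -2.39 ± 0.519 on the log2 scale (SE; adjusted p = 0.0121 with edgeR). Control library 2 was the highest, but no cKO library reached the lowest control. The Kcns2 call was lost without cKO library 1 (edgeR adjusted p = 0.0514), and that of Kcnv2 without cKO library 1 (0.0574) or 3 (0.0527). All cKO counts of Kcnv2 were under the filter's minimum of 10, so it was tested through its control counts alone. A stricter filter, a CPM of 1 or more in 3 libraries, left it out.

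Of the 4 Kcng genes, all tested, Kcng2 and Kcng4 rose and Kcng1 and Kcng3 did not pass. Among all tested genes 11.1% were higher and 13.9% lower. Kcng2 (ENSMUSG00000059852) was the most abundant silent subunit and second in the family per transcript length, with 21.1 ± 2.74 FPKM in cKO and 14.6 ± 4.81 FPKM in control testes. It was at 37.5, 39.7 and 39.5 CPM in cKO and 34.7, 24.4 and 25.4 CPM in control libraries (log2 fold change 0.46, SE 0.140, edgeR adjusted p = 0.0397). Control library 1 lay close to the cKO libraries, and in the deposited FPKM values the groups overlapped, with 18.6, 20.6 and 24.1 FPKM in cKO and 18.7, 15.9 and 9.34 FPKM in control libraries. Kcng4 (ENSMUSG00000045246) was at 6.83, 6.05 and 4.45 CPM in cKO and 3.54, 3.57 and 3.73 CPM in control libraries (log2 fold change 0.68, SE 0.213, edgeR adjusted p = 0.0456). Kcng1 was at -0.54 (edgeR adjusted p = 0.151) and Kcng3 at -0.58 (adjusted p = 0.118). The Kcng2 call was lost without any 1 cKO library (edgeR adjusted p = 0.0992, 0.127 and 0.116) and without control library 2 (0.0705) or 3 (0.143), and also with upper-quartile scaling (0.0676), total-count scaling (0.0746) or a replicate block (0.0512). The Kcng4 call was lost in 11 of 14 alternatives: without cKO library 1 (edgeR adjusted p = 0.173) or 2 (0.147) or control library 1 (0.0597), 2 (0.0816) or 3 (0.106), with RLE (0.0510), upper-quartile (0.0590) or total-count scaling (0.0676), without a filter (0.0527), with a replicate block (0.0842) and with limma-voom (0.0506).

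Of the 8 Kcna genes, which encode Shaker-type channels, 5 were tested and 0 passed with edgeR, DESeq2 or limma-voom, and 1, Kcna7, had an unadjusted edgeR p under 0.05. With edgeR 25.0% of all tested genes passed, so 0 of 5 does not set this subfamily apart. Kcna6 had the highest level, with 18.5, 19.1 and 22.7 CPM in cKO and 21.4, 20.5 and 15.6 CPM in control libraries, a log2 fold change of 0.06 with a 95% interval of -0.28 to 0.41, and its sign turned in 3 of the alternatives. Kcna7 did not overlap between the groups, with 2.55 ± 0.302 CPM in cKO and 1.70 ± 0.122 CPM in control testes (edgeR adjusted p = 0.107).

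In the Kcnc subfamily, whose channels open fast and repolarize fast-firing neurons, 2 of 4 genes were tested. Kcnc2 (ENSMUSG00000035681) rose, with 10.6, 10.2 and 10.7 CPM in cKO and 6.12, 7.19 and 6.97 CPM in control libraries, a tight spread in both groups and no overlap (log2 fold change 0.64, SE 0.146, edgeR adjusted p = 0.0152). The Kcnc2 call was lost without any 1 cKO library, with an edgeR adjusted p of 0.0628, 0.0601 and 0.0546.

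The Kcnd genes encode A-type channels, which inactivate quickly, and the Kcnip genes encode calcium-binding proteins that attach to them. Kcnd3 (ENSMUSG00000040896) was abundant and rose, with 96.0, 100.3 and 93.7 CPM in cKO and 61.8, 87.0 and 69.0 CPM in control libraries (log2 fold change 0.41, SE 0.128, edgeR adjusted p = 0.0444). Kcnd1 and Kcnd2 were near 0 on the log2 scale, at -0.02 and 0.01, with 95% intervals of -0.49 to 0.44 and -0.52 to 0.55. Of the 4 Kcnip genes, all tested, Kcnip4 (ENSMUSG00000029088) rose at a low level, with 10, 30 and 28 counts in cKO and 7, 13 and 5 counts in control libraries (log2 fold change 1.60, SE 0.503, edgeR adjusted p = 0.0461); cKO library 1 lay within the control range. Kcnip3, whose product is also known as the transcriptional repressor DREAM, was the most abundant partner and had 28.2, 25.3 and 25.8 CPM in cKO and 27.4, 21.7 and 23.8 CPM in control libraries (log2 fold change 0.12, edgeR adjusted p = 0.494). Kcnip1 was at 0.39 and Kcnip2 at -0.38, and neither passed. The Kcnd3 call was lost without cKO library 1, 2 or 3 (edgeR adjusted p = 0.123, 0.148 and 0.102) or control library 3 (0.145), with RLE (0.0571) or total-count scaling (0.0628) and without a filter (0.0535). The Kcnip4 call was lost without cKO library 2 (edgeR adjusted p = 0.158) or 3 (0.151) or control library 1 (0.0744) or 3 (0.152), with total-count scaling (0.0517), without a filter (0.0553) and with limma-voom (0.0655). The stricter filter left Kcnip4 out as well.

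Of the Kcnq genes, whose channels carry the M-current that damps neuronal firing, and with Kcne1 a repolarizing current of the heart, 3 of 4 were tested. Over all tested genes 44.6% were without overlap, 22.5% upward and 22.1% downward, and in the family these were 20 and 6 of 54 genes, or 37.0% and 11.1%. Without Kcnh1 and Kcnb2 they were 18 and 6 of 52 genes, or 34.6% and 11.5%. Kcnq3 (ENSMUSG00000056258) rose, with 17.9, 18.4 and 17.7 CPM in cKO and 7.28, 14.5 and 11.1 CPM in control libraries (log2 fold change 0.72, SE 0.219, edgeR adjusted p = 0.0413). The cKO libraries were close together and the controls spread over a wider range. Kcnq5 was at 0.39 (edgeR adjusted p = 0.149). Kcnq1 was not tested, with 11, 3 and 4 counts in cKO and 7, 4 and 4 counts in control libraries. Kcne1 (ENSMUSG00000039639), its auxiliary subunit, rose, with 36, 27 and 29 counts in cKO and 17, 12 and 18 counts in control libraries (log2 fold change 1.14, SE 0.314, edgeR adjusted p = 0.0295). Kcne4 and Kcne5 were at 0.16 and 0.57 and did not pass. The Kcnq3 call was lost without cKO library 1, 2 or 3 (edgeR adjusted p = 0.113, 0.119 and 0.101) or control library 3 (0.113) and with total-count scaling (0.0526), and the Kcne1 call without cKO library 1, 2 or 3 (0.123, 0.0658 and 0.0841) or control library 2 (0.0760) or 3 (0.0606).

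**Figure D2:**
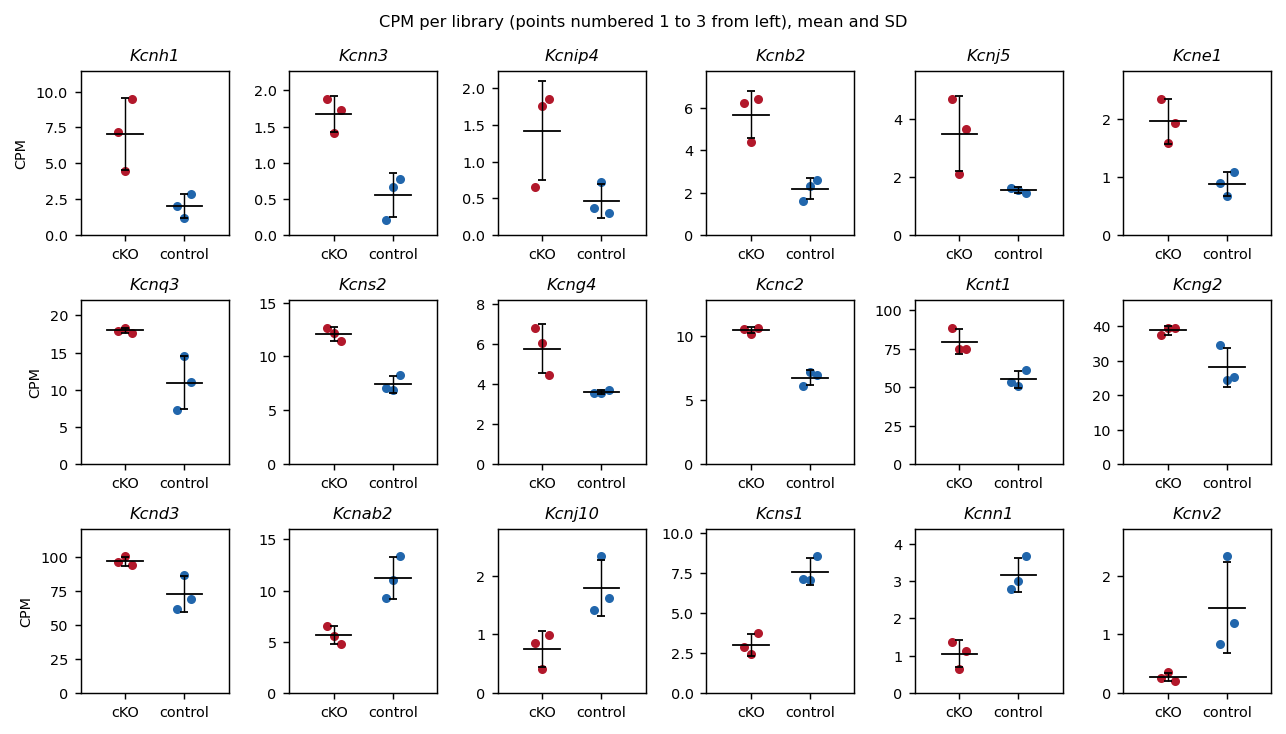
CPM of the 18 Kcn genes with an adjusted p under 0.05, in order of their log2 fold change, with cKO libraries in red left of control libraries in blue and each axis starting at 0. Points are single libraries, lines the mean and bars the SD (n = 3 each). In Kcnip4 the groups overlap, and in the other 17 every cKO library lies on one side of the controls. These 18 genes were picked by their adjusted p from the same libraries, which favours groups apart. Of all tested genes, 44.6% were without overlap. Kcnh1 and Kcnb2 are among the 17 and are shown as a description, since their rise chose the family.

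Members of the small-conductance Kcnn subfamily, which open with calcium bound to calmodulin, moved in opposite directions. Kcnn1 (ENSMUSG00000002908) fell, with 1.37, 0.646 and 1.13 CPM in cKO and 2.80, 3.01 and 3.67 CPM in control libraries (log2 fold change -1.59, SE 0.314, edgeR adjusted p = 0.00829). Kcnn3 (ENSMUSG00000000794) rose, with 29, 24 and 26 counts in cKO and 4, 12 and 13 counts in control libraries (log2 fold change 1.60, SE 0.429, edgeR adjusted p = 0.0264). Neither gene overlapped between the groups. Kcnn2 just missed the threshold at 0.80 (95% interval 0.22 to 1.39, edgeR adjusted p = 0.0510), with 3.45, 2.70 and 3.39 CPM in cKO and 1.90, 1.39 and 2.16 CPM in control libraries. In 2 of the 14 alternatives Kcnn2 passed. Kcnn4 was not tested. The Kcnn3 call was lost without cKO library 1, 2 or 3 (edgeR adjusted p = 0.0989, 0.0696 and 0.0825).

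Kcnt1 (ENSMUSG00000058740) encodes a sodium-activated channel and came after Kcng2 in mean level per transcript length, with 18.3 ± 2.99 FPKM in cKO and 13.8 ± 2.20 FPKM in control testes. It rose, with 88.7, 75.0 and 74.7 CPM in cKO and 53.6, 50.6 and 61.2 CPM in control libraries (log2 fold change 0.53 with an SE of 0.113, edgeR adjusted p = 0.0112), and the call was lost without cKO library 1 (0.44, adjusted p = 0.0603). Kcnt2 was at 0.20 and did not pass. Kcnu1, the sperm channel gene, had 18, 26 and 23 counts in cKO and 24, 18 and 41 counts in control libraries, a log2 fold change of -0.15 with a 95% interval of -1.01 to 0.70. Kcnmb4, an auxiliary subunit of the large-conductance channel, was at 18.3, 19.7 and 17.4 CPM in cKO and 18.6, 10.2 and 13.2 CPM in control libraries (edgeR adjusted p = 0.174), and passed at 0.63 without control library 1 (adjusted p = 0.00804). Kcnmb1, the smooth muscle partner of the same channel, was at -0.18 (edgeR adjusted p = 0.644).

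Of 14 Kcnj genes, which encode inward rectifiers, 6 were tested. Kcnj5 (ENSMUSG00000032034), a G-protein-gated channel gene known for setting aldosterone output in the adrenal gland, rose, with 72, 36 and 55 counts in cKO and 31, 28 and 24 counts in control libraries, or 3.48 ± 1.29 CPM in cKO and 1.55 ± 0.0974 CPM in control testes (log2 fold change 1.16, SE 0.321, edgeR adjusted p = 0.0296). Its partner Kcnj3 was at 0.40 without overlap between the groups (edgeR adjusted p = 0.157). Kcnj10 (ENSMUSG00000044708), known from glia and kidney, fell, with 13, 7 and 15 counts in cKO and 27, 42 and 27 counts in control libraries (log2 fold change -1.26, SE 0.387, edgeR adjusted p = 0.0420). Kcnj15 was at 0.81 (adjusted p = 0.0710) and Kcnj2 at -0.22 (adjusted p = 0.644). The Kcnj5 call was lost without cKO library 1 (edgeR adjusted p = 0.126) or 3 (0.0893) or control library 2 (0.0530) or 3 (0.0970), and the Kcnj10 call without cKO library 1, 2 or 3 (0.109, 0.155 and 0.0689) or control library 2 (0.106) or 3 (0.0946), without a filter (0.0515) and with a replicate block (0.0759).

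ATP-sensitive channels pair the inward rectifiers of Kcnj8 or Kcnj11 with a sulfonylurea receptor, and the 2 receptor genes went opposite ways. Abcc8, the receptor gene of pancreatic beta cells and neurons, fell, with 2.93, 1.94 and 4.12 CPM in cKO and 6.86, 9.64 and 10.6 CPM in control libraries (log2 fold change -1.60, SE 0.287, edgeR adjusted p = 0.00578). Abcc9, the receptor gene of heart and vascular smooth muscle, rose, with 29.3, 31.9 and 36.3 CPM in cKO and 13.9, 21.2 and 21.2 CPM in control libraries (log2 fold change 0.80, SE 0.172, edgeR adjusted p = 0.0118). The groups of both receptor genes were apart. Kcnj11, which pairs with the Abcc8 product in beta cells, was not tested, with 0, 0 and 8 counts in cKO and 9, 4 and 13 counts in control libraries. Kcnj8, which pairs with the Abcc9 product in vessels, was at 5.85, 5.17 and 5.11 CPM in cKO and 5.07, 2.84 and 5.29 CPM in control libraries (log2 fold change 0.29, edgeR adjusted p = 0.428). The Abcc9 call was lost without cKO library 3 (0.71, edgeR adjusted p = 0.0523), and that of Abcc8 was kept in all 14 alternatives run.

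**Figure D3:**
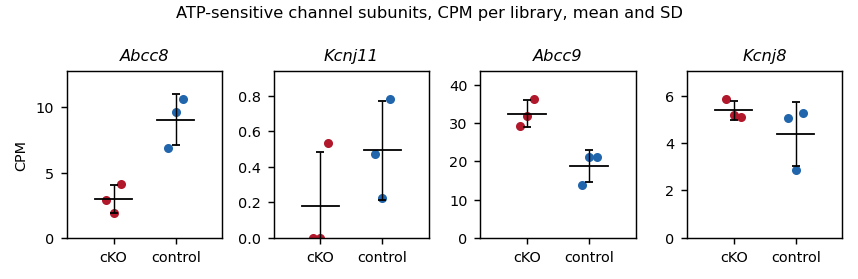
CPM of the receptor genes Abcc8 and Abcc9 and of the pore genes Kcnj11 and Kcnj8, with cKO libraries in red left of control libraries in blue, and mean and SD (n = 3 each). Abcc8 lies at 1.94 to 4.12 CPM in cKO, under every control, and Abcc9 at 29.3 to 36.3 CPM, above every control, while the pore genes overlap.

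Of 11 Kcnk genes, the leak channels that hold the resting potential, 4 were tested and 0 passed with edgeR or limma-voom. With edgeR 25.0% of all tested genes passed, so 0 of 4 does not set this subfamily apart. Of the 4 genes 1, Kcnk3, had an unadjusted edgeR p under 0.05 and passed with DESeq2 (adjusted p = 0.0479). Kcnk3, an acid-sensitive channel gene, was the most abundant of them, with 44.5, 39.5 and 46.8 CPM in cKO and 40.8, 27.7 and 26.3 CPM in control libraries (log2 fold change 0.46, 95% interval 0.09 to 0.84, edgeR adjusted p = 0.0707). Control library 1 was the one control within the cKO range, and without it Kcnk3 passed at 0.67 (adjusted p = 0.000835). Control library 1 also had the highest control level of Kcng2 and Kcnmb4, and it stood apart from control libraries 2 and 3 in the markers of several cell types. Its summed level was higher for Leydig cell markers (1203 CPM beside 688 and 678 CPM), Sertoli cell markers (6459 CPM beside 5149 and 4787 CPM) and neural and Schwann cell markers (189 CPM beside 154 and 124 CPM), and lower for pan-germ-cell markers (1806 CPM beside 2363 and 2335 CPM). The part of these shifts in the values of Kcnk3, Kcng2 and Kcnmb4 was not tested. Kcnk1, Kcnk2 and Kcnk13 were at 0.08, 0.12 and 0.20.

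Of the 2 Kcnab genes, whose products are cytoplasmic subunits related to aldo-keto reductases, Kcnab2 (ENSMUSG00000028931) fell, with 6.50, 5.58 and 4.78 CPM in cKO and 9.23, 10.98 and 13.3 CPM in control libraries (log2 fold change -0.99, SE 0.194, edgeR adjusted p = 0.00814). The groups did not overlap, and the value lay between -1.14 and -0.85 over the alternatives. Kcnab3 was at -0.21 (edgeR adjusted p = 0.329). The 5 genes that fell in cKO, Kcns1, Kcnv2, Kcnn1, Kcnj10 and Kcnab2, fell by 0.99 to 2.39 on the log2 scale, where the 18 pan-germ-cell markers had a median of -1.50, the 14 markers of undifferentiated spermatogonia one of -0.35 and the 16 Sertoli cell markers one of 0.46; their cell of origin was not tested.

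By level, 6 of the 86 genes had a mean of at least 10 FPKM over the 6 libraries, 31 at least 1 FPKM and 61 at least 0.1 FPKM. The first 3, Kcnh2, Kcng2 and Kcnt1, overlapped in their FPKM ranges. Kcnd3, Kcnmb4, Kcnip3, Kcnk3 and Kcnk13 came next, with means from 13.2 to 7.81 FPKM, and neighbours among them also overlapped. In CPM, Kcnh2, Kcnd3, Kcnt1, Kcnk3 and Kcng2 together held 51.3% of the family's summed level. That sum was 695, 662 and 666 CPM in cKO libraries and 555, 543 and 539 CPM in control libraries, and without Kcnh1 and Kcnb2 it was 682, 653 and 650 CPM in cKO libraries and 551, 540 and 533 CPM in control libraries. The groups did not overlap in either sum.

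**Figure D4:**
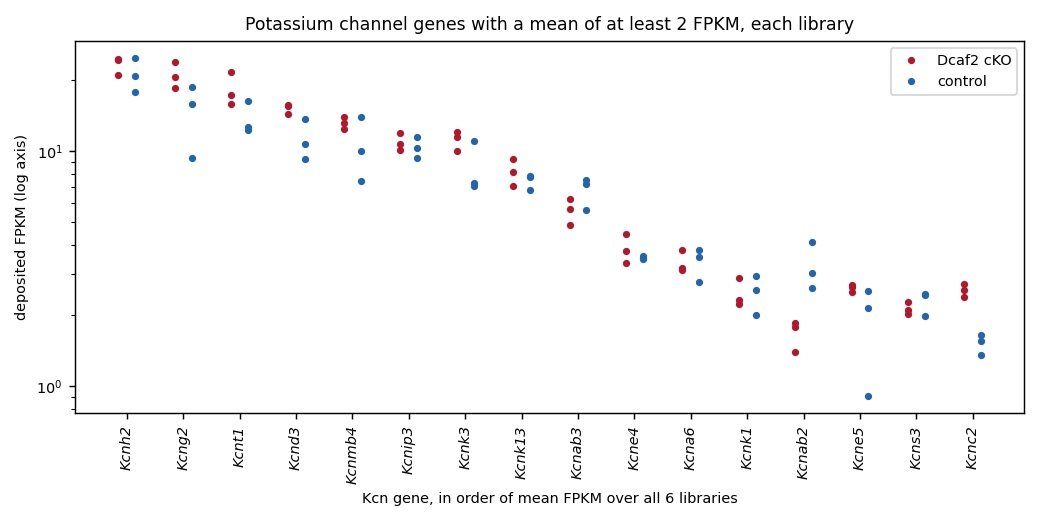
Deposited FPKM (log axis) of the 16 Kcn genes with a mean of at least 2 FPKM, in order of that mean, with cKO libraries in red left of control libraries in blue, 1 point per library. The highest gene, Kcnh2, averages 22.3 FPKM, and Kcnab2 has all its cKO points under its control points.

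The 32 genes that were not tested reached at most 15 counts in any library, and 2 of them, Kcnh5 and Kcnk12, had none. Kcnmb3 and Kcnj9 had no count in cKO and 7 and 5 counts over the 3 control libraries, which is too few to set the groups apart. A further 7 channel genes are written in capitals in the deposited table and so fall outside the rule. Of these 5 were tested and 1 passed: Kcnj4, an inward rectifier gene, fell, with 1.56, 1.06 and 0.797 CPM in cKO and 5.80, 6.24 and 5.59 CPM in control libraries (log2 fold change -2.36 with an SE of 0.268, edgeR adjusted p = 0.00096), and kept its call in all 14 alternatives run. Kcnma1, the pore gene of the large-conductance channel, was at 40.8, 35.5 and 44.5 CPM in cKO and 20.8, 34.8 and 31.7 CPM in control libraries, without overlap (log2 fold change 0.47, edgeR adjusted p = 0.0888). Kcnk5, Kcnk6 and Kcnab1 were at -0.12, 0.24 and 0.67 and did not pass. The 1 call of 5 stands beside 25.0% of all tested genes.

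Outside the channel genes, 17 of 20 listed partner genes were tested, and 1 rose, 2 fell and 14 did not pass, with a median log2 fold change of -0.05. Over all tested genes 11.1% were higher and 13.9% lower. Besides Abcc8 and Abcc9, the gene that passed was Calm2, a calmodulin gene, with 240, 260 and 254 CPM in cKO and 347, 298 and 314 CPM in control libraries (log2 fold change -0.35, SE 0.0946, edgeR adjusted p = 0.0282). Calm3 was at 0.02. The Calm2 call was lost without cKO library 1, 2 or 3 (edgeR adjusted p = 0.133, 0.101 and 0.0931) or control library 3 (0.0803) and with a replicate block (0.0711).

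Of 10 cyclic-nucleotide-gated relatives 4 were tested. Hcn2, a pacemaker channel gene, fell, with 2.60, 3.29 and 2.39 CPM in cKO and 6.01, 8.03 and 9.80 CPM in control libraries (log2 fold change -1.52 with an SE of 0.241, edgeR adjusted p = 0.00362), and Cngb1, a subunit gene of the rod channel, rose, with 21.3, 13.2 and 13.9 CPM in cKO and 8.44, 8.81 and 10.2 CPM in control libraries (0.82, SE 0.201, adjusted p = 0.0193). Hcn3 and Hcn4 were at -0.55 and -0.94 and did not pass. Of 13 potassium pump and cotransporter genes 11 were tested, and 2 rose, 0 fell and 9 did not pass (edgeR), with a median of 0.15. The shares over all tested genes were 11.1% higher and 13.9% lower. Of the pump and cotransporter genes 1, Slc12a2 at -0.38, was lower with DESeq2 and at an unadjusted edgeR p under 0.05, and 0 with limma-voom. Among those that rose, Atp1b2, a subunit gene of the sodium-potassium pump, had 771, 815 and 734 CPM in cKO and 586, 514 and 475 CPM in control libraries (0.56, edgeR adjusted p = 0.00708). The Cngb1 call was lost without cKO library 1 (0.57, edgeR adjusted p = 0.0688).

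Several of these genes share exons with another gene in the GENCODE M21 annotation, which could share their reads, as the use of strand is not given in the sources used here. Among those that passed, Kcnd3, Kcng2, Kcnip4 and Kcnn1 overlap genes on the opposite strand and Kcnab2 one on its own strand, and the reads of such pairs cannot be told apart.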

How the data were processed

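Per the file headers the authors deposited 1 table that holds, for each gene, a count and an FPKM value in every library. StringTie 1.3.1 and RSEM are listed in the submitters' processing notes, without their roles, and the sources used here name no aligner, build or annotation and do not say whether strand was used. The deposited counts are whole numbers and were taken as estimated counts rounded by the authors, since in each library 3 to 21 genes with an FPKM above 0 have no count; they were used without further rounding. The FPKM values, scaled by the authors to length and library size, were used only for levels.

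Genes were kept by filterByExpr at a minimum count of 10, which left 14424 of 22274, and the genes left out held 0.063% of the counts. Scaling used the trimmed mean of M values over all tested genes, also for CPM, and genotype was tested with edgeR 4.0.16 (quasi-likelihood, R 4.3.3) with Benjamini-Hochberg adjustment over all tested genes and a threshold of 0.05. The SE is the log2 fold change divided by the square root of F. The procedure was tested on simulated data. Alternatives were DESeq2 1.42.0, limma-voom (limma 3.58.1), RLE, upper-quartile and total-count scaling, no filter, a stricter filter (CPM of 1 or more in 3 libraries), a replicate block, each library left out, and members by reference symbol; those for Kcnj4 and genes outside the family were added after seeing the data.

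Members follow the deposited symbol, which equals the reference symbol in 85 of 86. Named were Kcnh1, Kcnb2, every member past the threshold and the most abundant tested member of each subfamily, further genes after their values were seen; some genes are not reported here. The members and lists were chosen with earlier results of these data known. The labels do not say whether numbered samples are separate animals, so p-values measure only the spread between these samples, which may be technical. Pairs of libraries within a group differed by more than counting noise. With 3 libraries a group, small differences were not detectable; limits for a count of 0 cover counting error only.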

Additional observations from a re-analysis of the deposited data

How the results depend on the processing

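Of 544 values of 39 single genes under an alternative, 461 kept their direction and their side of the threshold, 71 no longer passed, 6 passed newly and 6 turned in sign, none of the last being a gene that passed. Kcna6 turned to -0.0011 with total-count scaling, and with 1 library left out it ran from -0.062 to 0.13, below 0 without cKO library 3 (-0.031) or control library 3. With 1 library left out Kcns3 ran from -0.13 to 0.024, above 0 without cKO library 1 or control library 3 (0.017), and Kcnu1 from -0.41 to 0.31, above 0 without control library 3; the cause was not tested. With total-count scaling 8 members were higher (against 13) and their median was 0.25 (against 0.32), and without a filter, where 84 members were tested, the median was 0.15. With 1 library left out, 3 to 14 members were higher, 3 to 5 were lower and the median was 0.22 to 0.32, and over all genes 1355 to 5255 passed (against 3607); fewer samples also lower the power of the test. With members taken by reference symbol 13 were higher and 6 lower of 58. The counts of higher members and the medians in this section include Kcnh1 and Kcnb2. The replicate numbers did not pair the samples (correlations of -0.07, -0.08 and 0.07 between same-numbered libraries); with them as a block the count was 11 higher and 4 lower and the median 0.34, Kcng2, Kcng4, Kcnj10 and Calm2 no longer passing. Genes of few counts, such as the 32 untested ones, were limited by depth.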
